A study of Homo sapiens with 2 samples.

Results

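The 10 human globin genes of the alpha-like cluster (HBZ, HBM, HBA2, HBA1 and HBQ1) and the beta-like cluster (HBE1, HBG2, HBG1, HBD and HBB) were examined in blood-generating heart-forming organoids (BG-HFOs). They were chosen by gene symbol, and all 10 were present among the 36601 genes of the count tables. BG-HFOs are aggregates of human pluripotent stem cells, here the embryonic stem cell line hES3 NKX2.5-eGFP, which carries a green fluorescent reporter at the cardiac gene NKX2-5. They were embedded in Matrigel and led by timed modulation of WNT signalling, together with cytokines and growth factors, to form cardiac, endothelial, mesenchymal and haematopoietic tissue. On day 14, 2 organoids of this 1 line and 1 condition (32.7 and 33.10) were dissociated and each gave 1 droplet single-cell RNA library, so no treatment was compared and all comparisons are between classes of cells.

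Haemoglobin is a tetramer of alpha-like and beta-like chains, and the genes of each cluster are switched on in turn during development. Primitive erythroid cells, which arise first from the yolk sac, are marked by HBZ (zeta) and HBE1 (epsilon), though they do not use these genes alone. Fetal red cells mainly use HBA1 and HBA2 (alpha) with HBG1 and HBG2 (gamma), and adult red cells combine alpha with HBB (beta) and a little HBD (delta). HBM (mu) and HBQ1 (theta) are minor alpha-like genes without a known place in a main haemoglobin. Erythroid cells and megakaryocytes, the platelet-forming cells, share a progenitor and several transcription factors, among them GATA1 and TAL1.

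In GENCODE v44 on GRCh38, the beta-like genes lie on the minus strand of chromosome 11, in the order HBB (5225464 to 5229395), HBD (5232678 to 5243657), HBG1 (5248269 to 5249857), HBG2 (5253188 to 5505605) and HBE1 (5268345 to 5505652). The alpha-like genes lie on the plus strand of chromosome 16, in the order HBZ (142728 to 154503), HBM (153892 to 166764), HBA2 (172876 to 173710), HBA1 (176680 to 177522) and HBQ1 (180459 to 181179). Each has 3 exons in its canonical transcript. The annotated spans of HBG2 and HBE1 overlap each other on the same strand, as do those of HBZ and HBM, and HBD overlaps the pseudogene HBBP1. These are overlaps of whole annotated spans, introns included. Reads in the shared stretches may be assigned to either gene, and their part was not tested. HBA1 and HBA2, and HBG1 and HBG2, are near-identical pairs, so the division of counts within each pair is uncertain, and sums over a pair are given where that matters.

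RefSeq promoter windows, from 250 bases before to 50 bases after the gene start on GRCh38.p14, were matched for HBD and HBM and not for the other 8 genes, which is why only these are shown. The start used is that of the RefSeq gene, which lies inside the longer GENCODE spans given above. The pair had opposite patterns in the 2 globin-rich classes described next, HBD being far higher in the megakaryocytic class and HBM in the erythroid class. Capitals mark matches, on either strand, to the TATA box letters TATAAA, the CCAAT box, the KLF-type box CACCC and the GATA-type site AGATAA. No match overlapped another.
HBD, chr11:5234434-5234733, minus strand: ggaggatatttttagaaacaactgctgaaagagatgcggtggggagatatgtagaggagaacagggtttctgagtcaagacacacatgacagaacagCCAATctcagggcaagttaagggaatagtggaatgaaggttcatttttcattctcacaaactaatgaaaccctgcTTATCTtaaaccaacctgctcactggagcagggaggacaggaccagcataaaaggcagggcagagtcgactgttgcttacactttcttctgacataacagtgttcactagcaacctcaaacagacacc
HBM, chr16:165728-166027, plus strand: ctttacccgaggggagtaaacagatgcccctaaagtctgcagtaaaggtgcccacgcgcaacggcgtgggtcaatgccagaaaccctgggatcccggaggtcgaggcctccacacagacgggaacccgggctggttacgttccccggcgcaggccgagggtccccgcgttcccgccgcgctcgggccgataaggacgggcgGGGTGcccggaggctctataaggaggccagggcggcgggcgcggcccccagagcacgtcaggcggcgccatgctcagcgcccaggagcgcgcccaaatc
The HBD window held CCAAT at position 98 and AGATAA at position 173 on its reverse strand, read as TTATCT, with positions counted from 1 at the 5′ end. The HBM window held CACCC on its reverse strand at position 202, read as GGGTG. Of all 35116 promoter windows of this length, 34.6% held CCAAT, 10.3% AGATAA, 59.9% CACCC and 11.5% TATAAA. The matches are a description of letters and not of bound sites.

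Cells were assigned to classes by raw unique molecular identifiers (UMIs, each standing for 1 captured transcript) of lineage genes other than globins. A class needed at least 10 UMIs from at least 4 genes of its list, for example ALAS2, AHSP and KLF1 for the erythroid class and PF4, ITGA2B and GP9 for the megakaryocytic class. Cells that met several lists were called mixed and kept apart. The erythroid class had 563 cells in organoid 32.7 and 1521 in organoid 33.10, and the megakaryocytic class had 930 and 2631. Cardiomyocytes (2512 and 2550 cells), endothelial cells (3092 and 3467) and myeloid cells (923 and 363) served to show the globin level outside the erythroid and megakaryocytic classes. The libraries held 191152562 and 233818881 UMIs in 16866 and 19948 barcodes, of which 16792 and 19893 passed the study's filter on genes and mitochondrial counts. They shared 100 barcode sequences, of which 1 fell in the erythroid class of organoid 32.7 and 6 in that of 33.10.

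Marker genes not used for the gates were highest in their own class for all 6 of the endothelial and of the cardiomyocyte check genes in both organoids, and for 6 and 5 of the 6 megakaryocytic ones. For the erythroid class this held for 3 of 6 (TFRC, GYPC and BLVRB). GATA1 and TAL1 were highest in the megakaryocytic class and CD36 in the myeloid class. Levels are given as CPM, the UMIs of a gene per 1000000 UMIs of its class. Since a 3′ UMI counts a molecule and not a length, levels of different genes were compared without division by length, although genes may differ in capture and mapping.

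Erythroid cells expressed an embryonic to fetal set of globins, led by HBZ, and almost no adult beta globin. Globins made up 11.7% of their UMIs in organoid 32.7 and 10.7% in organoid 33.10 (11.2% ± 0.734, SD, n = 2). HBZ, the embryonic alpha-like chain, stood at 50364 and 41648 CPM. It was followed by HBG2 (27482 and 27666 CPM), the fetal gamma chain, and HBE1 (17942 and 15225 CPM), the embryonic beta-like chain. No ranges overlapped among these 3 genes.

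HBA1, an alpha gene that stays in use for life, reached 10693 and 10694 CPM. HBG1 had 6047 and 6614 CPM and HBA2 had 4611 and 4879 CPM. These 3 genes also kept apart from their neighbours in the order, within the limit set by their near-identical copies. HBM (91.5 and 119 CPM) and HBQ1 (98.9 and 81.5 CPM) overlapped each other in the next place. HBD had 14.3 and 33.6 CPM. HBB, the adult beta chain, was the lowest, with 17 UMIs in 563 cells and 28 UMIs in 1521 cells, or 1.62 and 1.39 CPM.

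**Figure D1:**
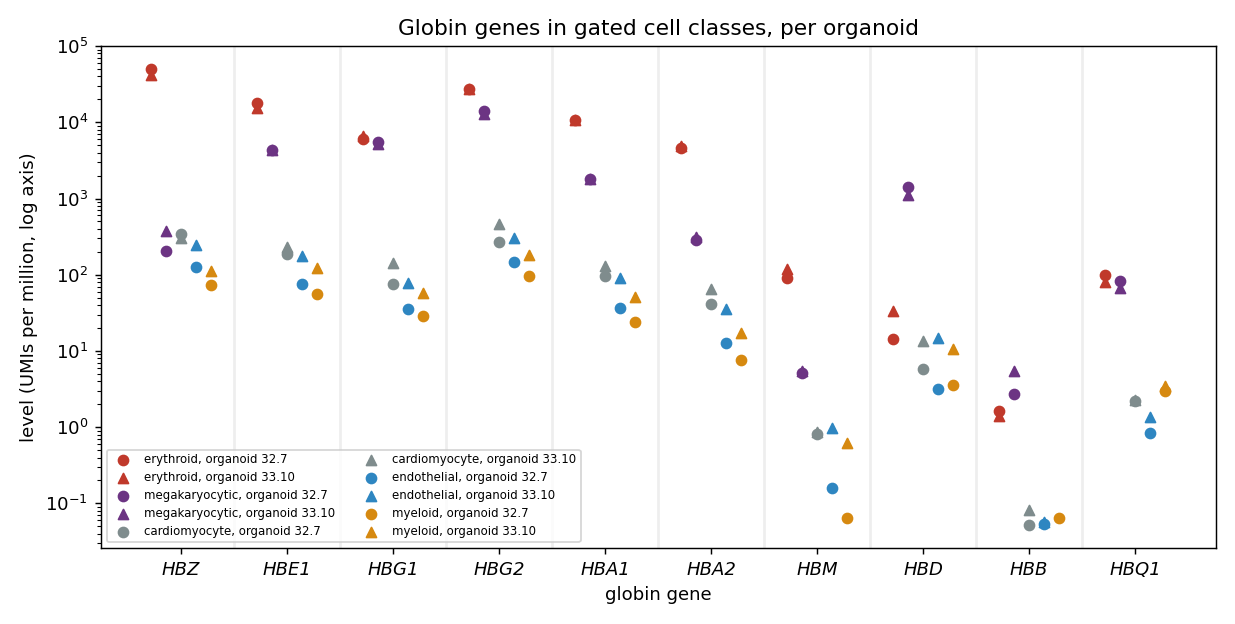
Level of each of the 10 globin genes (CPM, log axis) in 5 gated classes, with 1 point per organoid (circle 32.7, triangle 33.10) and points at 0 left out (HBB in myeloid cells of organoid 33.10). Erythroid points lie highest for HBZ, HBE1, HBG1, HBG2, HBA1, HBA2 and HBM, and megakaryocytic points lie highest for HBD, at 1399 and 1125 CPM, and for HBB.

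Among beta-like UMIs of erythroid cells, HBG1 and HBG2 together made up 65.1% and 69.2%, HBE1 34.8% and 30.7%, HBD 0.0277% and 0.0679%, and HBB 0.00314% and 0.00281%. Gamma thus exceeded epsilon in both organoids. Among alpha-like UMIs, HBZ made up 76.5% and 72.5%, and HBA1 and HBA2 together 23.2% and 27.1%. Alpha-like UMIs outnumbered beta-like ones by 1.28 and 1.16 times. HBZ was detected in 99.3% and 98.8% of erythroid cells and HBE1 in 99.3% and 98.9%.

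Most single erythroid cells held UMIs of both embryonic and fetal beta-like genes, although some held nearly all of one kind, as counted later for cells thinned to 30 UMIs. In cells with at least 100 beta-like UMIs (528 and 1424 cells), the HBE1 share had a median of 36.4% and 33.5%, and the fifth and 95th percentiles were 8.37% and 76.0% in organoid 32.7 and 7.84% and 89.8% in organoid 33.10. The HBZ share of alpha-like UMIs had a median of 78.0% and 71.6% over cells with at least 100 of these UMIs. Cells differed widely in how much globin they held, from 3.57% to 25.4% of UMIs between the fifth and the 95th percentile in organoid 32.7 and from 2.16% to 24.1% in organoid 33.10. The cells of 1 organoid are not replicates, and these ranges describe cells only.

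Megakaryocytic cells also carried globin UMIs, with a composition unlike that of erythroid cells. Globins made up 2.77% and 2.61% of their UMIs, mostly from beta-like genes, and 4.43% and 3.36% in the cells with at most 2 UMIs of each other lineage list. The ratio of alpha-like to beta-like UMIs was 0.0932 and 0.109. HBG2 led with 14103 and 12785 CPM, followed by HBG1 (5462 and 5260.5 CPM), HBE1 (4329 and 4342 CPM) and HBA1 (1778 and 1799 CPM). HBD came next, with 1399 and 1125 CPM, a level 98.0 and 33.5 times that of erythroid cells of the same organoid. The erythroid level was itself only 2.50 and 2.50 times that of cardiomyocytes, so the size of this fold is uncertain. Reads of the pseudogene HBBP1, which overlaps the HBD span, may be counted in it, and their part was not tested.

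In the megakaryocytic class HBD made up 5.53% and 4.78% of beta-like UMIs. HBZ (208 and 380 CPM) and HBA2 (284 and 312 CPM) overlapped each other. HBQ1 had 83.4 and 66.6 CPM, and HBM (5.08 and 5.49 CPM) and HBB (2.75 and 5.39 CPM) overlapped at the lowest levels. HBB remained rare, with 20 and 107 UMIs in 930 and 2631 cells.

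The ratio within each near-identical pair also differed between the classes. HBG2 UMIs outnumbered HBG1 UMIs by 4.55 and 4.18 times in erythroid cells and by 2.58 and 2.43 times in megakaryocytic cells. HBA1 UMIs outnumbered HBA2 UMIs by 2.32 and 2.19 times in erythroid cells and by 6.25 and 5.76 times in megakaryocytic cells. The same counting was applied to both classes, but these ratios were described without a test and depend on how reads of near-identical copies were assigned.

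**Figure D2:**
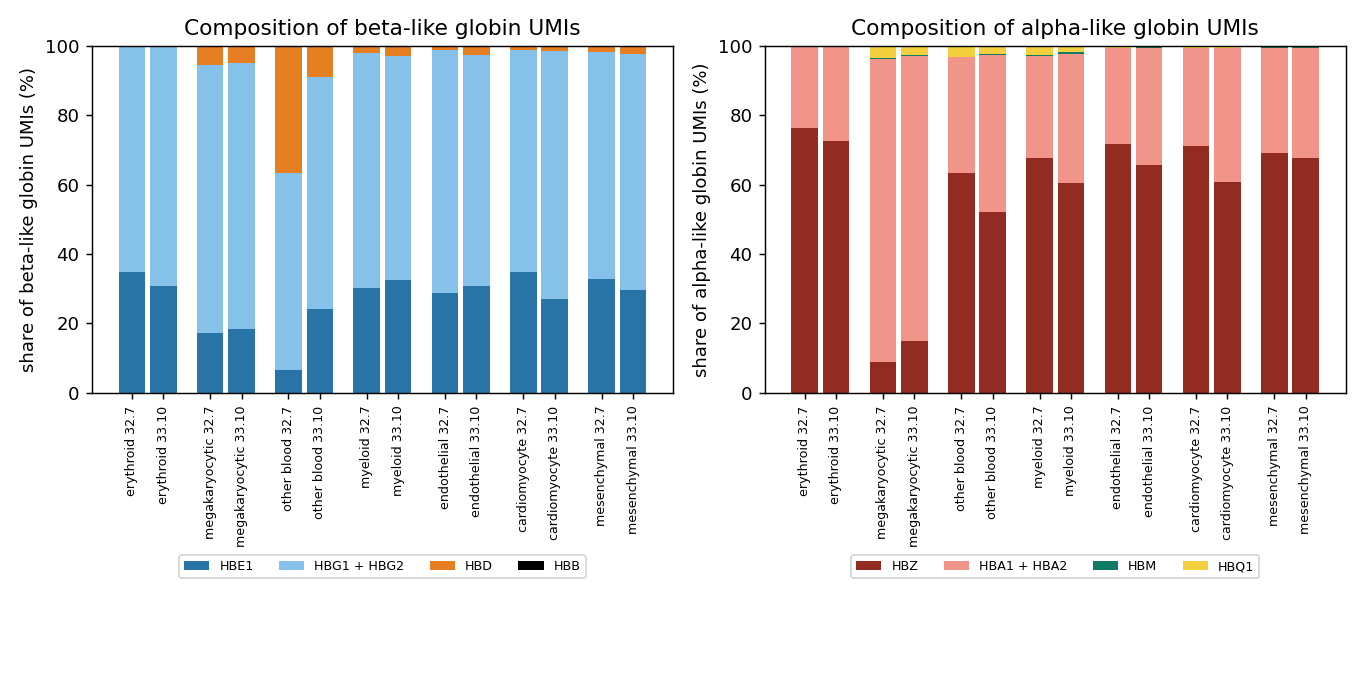
Stacked shares (%) of beta-like (left) and alpha-like (right) globin UMIs in 7 classes, with 1 bar per organoid. In megakaryocytic cells HBZ makes up 8.81% and 14.8% of alpha-like UMIs against 76.5% and 72.5% in erythroid cells. The HBD share stands out in megakaryocytic cells and in other blood cells, where it rests on few cells and few globin UMIs.

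UMIs summed per class and organoid were compared with edgeR's quasi-likelihood test, adjusted over 21188 genes. Between erythroid and megakaryocytic cells, 6 of the 10 globin genes were higher in erythroid cells and 2 were higher in megakaryocytic cells, against 22% and 27.7% of all genes tested. HBZ differed the most, with a log2 fold change of 7.55 ± 0.55 (SE, edgeR adjusted p = 1.11e-07). The alpha genes followed, with HBA2 at 4.23 ± 0.55 and HBA1 at 2.82 ± 0.52, as did HBM at 4.55 ± 0.37. HBE1 was higher by 2.18 ± 0.68 (edgeR adjusted p = 0.0162) and HBQ1 by 0.51 ± 0.20 (edgeR adjusted p = 0.0491). The HBQ1 difference was small, with CPM values that overlapped between the classes. Its erythroid level was 1.19 and 1.22 times the megakaryocytic level of the same organoid.

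HBD was higher in megakaryocytic cells, with a log2 fold change of -5.47 ± 0.70 (edgeR adjusted p = 2.20e-05), and HBB likewise, with -1.26 ± 0.37 (edgeR adjusted p = 0.0145). Neither gamma gene passed, with 1.27 ± 0.56 for HBG2 (edgeR adjusted p = 0.0766) and 0.48 ± 0.47 for HBG1 (edgeR adjusted p = 0.431). With the organoid as a block, which pairs the classes of 1 organoid, HBG2 passed with 1.25 ± 0.38 (edgeR adjusted p = 0.0120). HBZ, HBE1, HBA1, HBA2, HBM and HBD passed under all 11 alternatives, while HBB passed under 7 and HBQ1 under 6.

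The megakaryocytic class also held UMIs of the erythroid gate genes, which summed to 641 and 602 CPM against 4125 and 4367 CPM in erythroid cells and 37.1 and 44.5 CPM in cardiomyocytes. The globin pattern was therefore read again in the 204 and 364 megakaryocytic cells without any UMI of the erythroid list, a shallower set with medians of 1567 and 3006.5 UMIs. There globins made up 3.33% and 2.24% of UMIs, the alpha-like to beta-like ratio was 0.119 and 0.0746, and HBD made up 5.87% and 5.24% of beta-like UMIs. HBD remained higher than in erythroid cells in this setting, at 1750 and 1093 CPM. In the 228 and 458 megakaryocytic cells with at most 2 UMIs of each other lineage list, HBD stood at 1277 and 1087 CPM. Erythroid cells limited in the same way (268 and 797) had 20.2 and 16.0 CPM.

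HBD UMIs were unevenly spread over megakaryocytic cells. They were detected in 45.5% and 46.0% of the class, and in 75.5% and 68.6% of its deeper cells with at least 3 UMIs of the early list KIT, GATA2, MYB, CYTL1, CD34 and CNRIP1. Depth and state cannot be told apart in that difference. The tenth of the class with most HBD held 81.8% and 78.2% of its HBD UMIs, with up to 466 and 334 UMIs in 1 cell. After each cell was thinned to 2000 UMIs, which left out 208 and 263 shallower megakaryocytic cells, HBD was detected in 34.5% and 34.4% of cells (exact 95% intervals 31.0 to 38.1% and 32.5 to 36.4%). The same depth gave 2.15% and 4.99% in erythroid cells, with 5 and 19 left out, and 1.23% and 2.29% in cardiomyocytes, with 406 and 238 left out. The erythroid interval overlapped that of cardiomyocytes in organoid 32.7 (1.12 to 3.73% against 0.808 to 1.80%) and did not in organoid 33.10 (3.95 to 6.22% against 1.72 to 2.99%). These intervals cover counting error only, and unthinned shares were 11.9% and 17.6% in erythroid cells and 2.55% and 6.35% in cardiomyocytes.

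Megakaryocytic cells with progenitor or cycling transcripts differed in the HBD share of beta-like UMIs more than in the HBD level. Cells with at least 3 UMIs of this early list had HBD at 17.3% and 9.21% of beta-like UMIs, against 3.82% and 3.75% in those with none of these UMIs. The HBD level was 1832 and 1257 CPM against 1312 and 1069 CPM, while HBG2 stood at 5318 and 7551 CPM against 19773 and 15668 CPM, so that the share differed mostly through the other genes. The cells with early UMIs were deeper, with medians of 15774.5 and 13476 UMIs against 3700 and 4548.5. Their globins made up less of all UMIs, 1.21% and 1.51% against 3.73% and 3.15%. Megakaryocytic cells with at least 10 UMIs of cycling genes such as MKI67 and TOP2A had HBD at 19.3% and 9.58%, against 4.66% and 4.02% in those with at most 2. There the HBD level was 1565 and 855 CPM against 1456 and 1108 CPM, higher in one organoid and lower in the other, and HBG2 stood at 3818 and 4653 CPM against 17583 and 15133 CPM. A small class of other blood cells (40 and 101 cells) met a pan-blood list with genes such as SPN and PTPRC but no lineage list. It had HBD at 36.58% and 9.0003% of beta-like UMIs, with little globin in all (0.116% and 0.324% of UMIs). These shares rest on 503 and 3311 beta-like UMIs. Globin UMIs per cell had medians of 4 and 20, with 277 and 416 in the highest cell, so 1 cell weighed heavily in organoid 32.7. These splits were described without a test.

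Beta-like UMIs of single megakaryocytic cells often came mostly from 1 kind of gene, chiefly the gamma pair. That pair made up 77.3% and 76.7% of the beta-like UMIs of the class. Cells with at least 30 beta-like UMIs (730 and 2169 megakaryocytic and 557 and 1496 erythroid cells) were thinned to 30 of these UMIs, so that the classes had equal counts. At least 27 of the 30 came from HBE1 alone, from the gamma pair alone or from HBD alone in 46.8% and 45.4% of megakaryocytic cells, against 10.4% and 17.4% of erythroid cells. In megakaryocytic cells this was gamma in 266 and 765 cells, HBE1 in 50 and 178, and HBD in 26 and 41. In erythroid cells it was gamma in 43 and 170 cells, HBE1 in 15 and 90, and HBD in none of 557 and 1496, which allows a share of up to 0.539% and 0.201%. Conversely, 92.5% and 87.0% of erythroid cells held at least 3 UMIs of both HBE1 and gamma, against 44.2% and 47.3% of megakaryocytic cells.

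**Figure D3:**
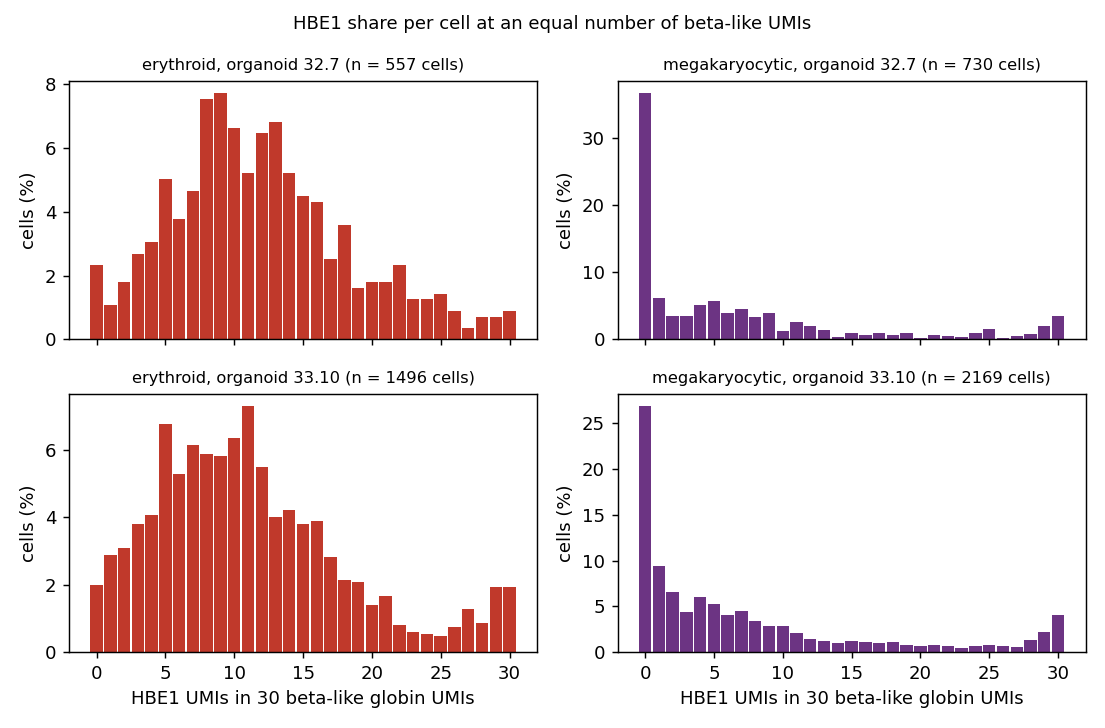
Number of HBE1 UMIs among 30 beta-like UMIs drawn from each cell (x axis) and share of cells (%, y axis, scaled per panel), for erythroid (left) and megakaryocytic (right) cells of organoid 32.7 (top) and 33.10 (bottom). Erythroid cells spread around a median of 36.7% and 33.3% HBE1, whereas megakaryocytic cells pile up at 0 UMIs, with a median of 13.3% in both organoids and a small second peak at 30 (25 and 88 cells), where erythroid cells of organoid 33.10 also rise slightly (29 cells).

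Low globin levels were found in every other class, and the classes were compared with cardiomyocytes. Globins made up 0.102% and 0.136% of cardiomyocyte UMIs, 0.0439% and 0.0951% of endothelial UMIs and 0.0293% and 0.0558% of myeloid UMIs, with medians of 2 and 3 globin UMIs per cardiomyocyte. The cardiomyocyte share was 0.0373% and 0.0632% without cells that had more than 2 UMIs of another list, and 0.234% and 0.204% without cells of over 2 times the median UMIs, so this reference level moved with the cells kept. HBZ made up 71.1% and 60.9% of alpha-like UMIs in cardiomyocytes and 73.5% and 68.3% in all cells, and HBE1 made up 34.9% and 27.2% of beta-like UMIs in cardiomyocytes and 29.8% and 26.3% in all cells. Cardiomyocytes with at least 100 globin UMIs numbered 30 and 64. Free RNA was not removed from these counts, and its part in these levels was not tested.

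Against cardiomyocytes, 9 of the 10 globin genes were higher in megakaryocytic cells, whereas 28% of all genes were. HBD had the largest log2 fold change, 7.39 ± 0.77 (edgeR adjusted p = 2.09e-06). HBB, counted among the 9, had 6.12 ± 0.54. It had 1 and 2 UMIs in cardiomyocytes against 20 and 107 in megakaryocytic cells, so the size of its fold is poorly set. With almost no UMIs elsewhere, HBB passed the expression filter only through the globin-rich classes, and its call adds no support. The fold changes of HBG1 (5.97 ± 0.59), HBG2 (5.55 ± 0.67), HBQ1 (5.40 ± 0.26), HBE1 (4.72 ± 0.76), HBA1 (4.34 ± 0.56), HBM (2.98 ± 0.49) and HBA2 (2.85 ± 0.52) also passed. HBZ did not pass, with 0.19 ± 0.41 (edgeR adjusted p = 0.709). At 2000 UMIs per cell HBZ was detected in 19.8% and 29.2% of megakaryocytic cells and in 20.4% and 24.2% of cardiomyocytes. When cells with more than 2 UMIs of any other list were left out, HBZ stood at 242 and 454 CPM in megakaryocytic cells and 112 and 184 CPM in cardiomyocytes, and it then passed (log2 fold change 1.49, edgeR adjusted p = 0.00421).

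Myeloid cells had less HBZ (-1.56 ± 0.43, edgeR adjusted p = 0.00564), HBA1 (-1.34 ± 0.51, edgeR adjusted p = 0.0341) and HBA2 (-1.91 ± 0.55, edgeR adjusted p = 0.00740) than cardiomyocytes, or 3 of 10 globin genes against 33.9% of all genes. This count is near the share over all genes, and these calls depended on the setting. HBZ and HBA2 passed in 8 and HBA1 in 6 of 10 alternatives, with 0 of 10 genes called when mixed cells were given to their dominant list (1 at an unadjusted p under 0.05), 1 of 9 without cells carrying other lists and 5 of 10 with the organoid as a block. In this comparison depth differed too, with medians of 13709 and 14282 UMIs per myeloid cell and 5040.5 and 7610 per cardiomyocyte. Endothelial cells had less HBQ1 (-1.02 ± 0.31, edgeR adjusted p = 0.0134), 1 of 10 genes against 29.5% of all genes, and 5 of 10 with the block. This call rests on few UMIs, with HBQ1 at a mean of 1.11 CPM in endothelial cells and 2.25 CPM in cardiomyocytes. In organoid 32.7 these classes held 31 and 43 HBQ1 UMIs. Endothelial cells with at least 2 RUNX1 UMIs and 1 SPN UMI, genes of blood-forming endothelium, numbered only 10 and 11 and were too few for the fit. Globins made up 0.0717% and 0.205% of their UMIs, against 0.0436% and 0.0946% in other endothelial cells. Single cells weighed heavily in the small group, with medians of 6 and 17 globin UMIs per cell and 120 and 112 in the highest cell.

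Within the erythroid class, late cells had more HBZ than early cells. Early cells (82 and 214) had at least 3 UMIs of the early list named above and more of it than of the late list, and late cells (340 and 809) the reverse, with a late list that includes SLC4A1, EPB42, TRIM58, TMCC2 and BPGM. HBZ stood at 23625 and 19858 CPM in early cells, 43835 and 38198 CPM in cells between and 58814 and 50790 CPM in late cells. The late values lay above the early ones in both organoids. HBM had 66.5 and 69.8 CPM in early, 135 and 139 CPM between and 90.7 and 131 CPM in late cells. The middle group had the highest values, but 1 erythroid cell of organoid 33.10 held 242 of the 2398 HBM UMIs of its class. In organoid 32.7 the highest cell held 16 of 961. The stage of that 1 cell and its part in these levels were not tested.

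The log2 fold change from early to late was 1.62 ± 0.39 for HBZ (edgeR adjusted p = 0.0167) and 0.98 ± 0.29 for HBM (edgeR adjusted p = 0.0494). These were the 2 globin genes that passed, against 4.99% of 19843 genes tested that passed as higher and 3.57% as lower. Mean levels of HBE1, HBG1, HBG2, HBA1 and HBA2 were also higher in late cells, and those of HBD and HBQ1 were lower. Globins made up 6.86% and 6.15% of UMIs in early cells and 13.0% and 12.1% in late cells. HBE1 (1.19 ± 0.60, edgeR adjusted p = 0.258), HBG2 (0.84 ± 0.51, edgeR adjusted p = 0.357) and HBA1 (1.17 ± 0.45, edgeR adjusted p = 0.123) did not pass. With the organoid as a block 4 passed, HBA1 and HBA2 in addition, while HBM passed in 5 of 12 alternatives and HBZ in 10. The ratio of alpha-like to beta-like UMIs went from 0.909 and 0.895 in early to 1.09 and 0.957 in intermediate and 1.38 and 1.29 in late cells. The HBE1 share of beta-like UMIs was 28.8% and 28.4% in early and 36.0% and 32.1% in late cells. Median depth was 23215 and 16301.5 UMIs in early and 19335.5 and 12764 in late cells.

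**Figure D4:**
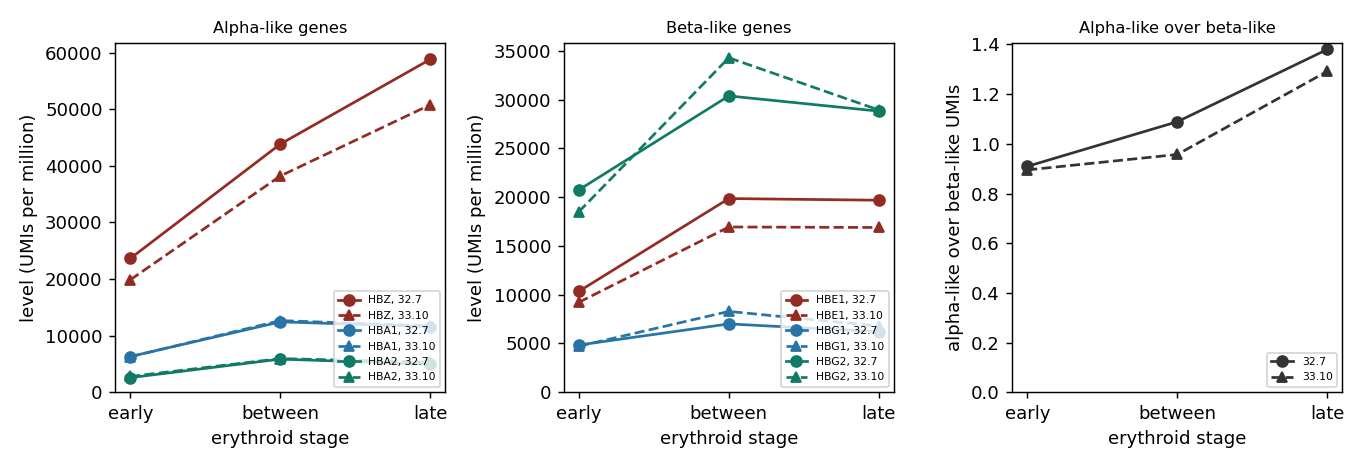
Levels (CPM) of HBZ, HBA1 and HBA2 (left) and HBE1, HBG1 and HBG2 (middle), and the ratio of alpha-like to beta-like UMIs (right), in early, between and late erythroid cells, with 1 line per organoid (solid 32.7, dashed 33.10). HBZ is lowest in early cells and highest in late cells, from 23625 to 58814 and from 19858 to 50790 CPM.

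Cycling erythroid cells had less HBA2 and HBM than non-cycling ones. HBA2 stood at 3267 and 3303 CPM in cycling cells (238 and 407 cells) and 8057 and 7030 CPM in non-cycling cells (216 and 845). HBM stood at 72.5 and 72.1 CPM against 149.7 and 153 CPM. The groups did not overlap for either gene, and the part of the 1 cell with 242 HBM UMIs in organoid 33.10 was not tested. The difference was not particular to these genes. Mean levels of HBZ, HBE1, HBG1, HBG2, HBA1 and HBD were also lower in cycling cells, with HBA1 at 8254 against 15364 CPM. Those of HBB and HBQ1 were higher. Globins made up 10.2% and 8.77% of UMIs in cycling cells and 15.3% and 12.9% in non-cycling cells. The log2 fold changes of HBA2 and HBM were -1.44 ± 0.45 (edgeR adjusted p = 0.0278) and -1.30 ± 0.31 (edgeR adjusted p = 0.00511). Thus 2 of 10 globin genes passed as lower, against 13.6% of 19386 genes that were lower and 11.4% that were higher. This count is near the share over all genes. HBZ did not pass (-0.54 ± 0.39, edgeR adjusted p = 0.352), and its share of alpha-like UMIs was 79.7% and 76.3% in cycling and 70.1% and 67.5% in non-cycling cells. With the organoid as a block 4 genes passed, HBG1 and HBA1 in addition, and DESeq2 called 0 of 10 (3 at an unadjusted p under 0.05). Cycling cells were deeper, with medians of 26668.5 and 19333 UMIs against 9638 and 7735.

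Genes of haem synthesis, the pathway that supplies the oxygen-binding group of globin, were higher in erythroid than in megakaryocytic cells for all 12 of 12 listed genes, against 22% of all genes (median log2 fold change 2.50, against -0.18 over all genes). Among them were FECH (3.71 ± 0.14), which inserts iron into the ring, and ABCB10 (3.69 ± 0.17), a mitochondrial transporter. From early to late erythroid cells 8 of the 12 rose, against 4.99% of all genes, led by SLC25A37 (1.90 ± 0.17), which carries iron into mitochondria, and also including FECH (1.05 ± 0.14). In cycling against non-cycling cells 6 of the 12 were lower and 1 was higher, against 13.6% and 11.4% of all genes, with SLC25A37 at -1.47 ± 0.14 and PPOX at -0.81 ± 0.16.

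Known regulators of globin genes were higher in erythroid cells for 12 of 24 and higher in megakaryocytic cells for 8, against 22% and 27.7% of all genes. The largest were HIC2 (3.00 ± 0.20), a repressor of BCL11A, MYB (2.86 ± 0.28), a factor of proliferating blood progenitors, and LMO2 (2.19 ± 0.16), an adaptor in the GATA1 and TAL1 complex. BCL11A, the repressor of gamma genes, was low, at 1.71 and 1.19 CPM in erythroid and 5.08 and 3.22 CPM in megakaryocytic cells. From early to late, 2 of 24 rose and 3 fell, against 4.99% and 3.57% of all genes. Those that fell were BCL11A (-2.05 ± 0.59, edgeR adjusted p = 0.0405), NFIA (-1.21 ± 0.33) and MYB (-1.91 ± 0.27), and MYB is itself in the early list. At the low levels given above, the BCL11A value rests on few UMIs. The listed haem and regulator genes were not tested under the alternatives. Between cycling and non-cycling cells 6 were higher and 3 lower, against 11.4% and 13.6% of all genes, led by SOX6 (-1.64 ± 0.32), NFIA (1.56 ± 0.34) and IGF2BP1 (1.22 ± 0.15). Of the other globin family, MB and CYGB stayed below 1 CPM in both globin-rich classes.

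The genes whose log2(CPM + 1) was most like that of summed globin over 14 class and organoid sums were STK17A (Pearson r 0.967), RFESD (0.962), CPOX (0.960), an enzyme of haem synthesis, CNOT10 (0.958) and LANCL3 (0.952), out of 15553 genes that were neither globins nor gate genes. The points share libraries, 2 per class, and only 4 of them are rich in globin. In the beta-like locus, BGLT3, a noncoding transcript between HBD and HBG1, had 2.76 and 2.59 CPM in erythroid, 1.51 and 1.71 in megakaryocytic and 0.0515 and 0 CPM in cardiomyocyte sums. AC104389.5, annotated on the same strand across HBG2 and HBE1, had 204 and 151, 60.3 and 57.0, and 32.5 and 34.4 CPM. Its reads may not be separable from theirs where they overlap, which was not tested.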

How the data were processed

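Both organoids were sequenced as 1 droplet 3′ library each. The authors deposited whole UMI counts per gene and barcode, made with Cell Ranger 7.0.0 on GRCh38 with intronic reads included. The counts precede the study's depth equalization, removal of free RNA and cell filter. Near-identical copies can exchange reads.

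Barcodes were kept that held between 50 and 11000 detected genes and less than 30% mitochondrial UMIs. Classes were gated on raw UMIs (at least 10 from at least 4 genes of 1 list) and no doublet caller was run. Mixed cells were kept out. The 10 members, the lists and the gates were chosen with earlier results of these data known. Named genes were all members, the 3 largest changes of each list, the 5 genes most like summed globin, and genes annotated across the loci, and some items are not reported here.

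UMIs were summed per class and organoid for classes with at least 20 cells in each, and compared in edgeR 4.0.16 (R 4.3.3, TMM, expression filter, quasi-likelihood test, Benjamini-Hochberg over all genes, threshold 0.05). The organoids are the replicates (n = 2). The p-values rest on the spread between organoids within classes, estimated over all classes of 1 fit without an organoid term. Stages and cycling states were gated on the same cells that were compared. Classes of 1 organoid share a source, and their deviations correlated with a median of 0.106 (0.0146 to 0.317, 21 pairs), so a fit with the organoid as a block was an alternative beside DESeq2 1.42.0, other gates, filters and library sizes. The block value is given where it changes a call. In simulated counts for erythroid against megakaryocytic (21188 genes, 200 changed), 131 genes changed by a log2 of 1 and 188 changed by 2 were recovered, with 8 and 15 unchanged genes called. All other genes had 1 mean in every class, and no organoid effect was simulated. In the data 22% of genes were called higher and 27.7% lower, so these recoveries do not carry over to the data. Depth was 191152562 and 233818881 UMIs. Sequences are from RefSeq (GRCh38.p14) and positions from GENCODE v44, whose spans may differ from the gene models used in counting. Python 3.11.15 was used.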

Additional observations from a re-analysis of the deposited data

Results flagged for a closer look

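Many globin-rich cells lay outside the gated classes and entered no comparison. Of the mixed cells, 727 in organoid 32.7 and 2041 in organoid 33.10 held at least 100 globin UMIs, as did 209 and 391 of the cells that met no list. They are given because they are data that the comparisons left out. The globin-rich mixed cells had an alpha-like to beta-like ratio of 0.820 and 0.654 and HBD at 1.60% and 2.06% of beta-like UMIs, values between those of the erythroid and megakaryocytic classes, and a median of 20130 and 19485 UMIs. Cells that met exactly the erythroid and the megakaryocytic lists (120 and 526) had a ratio of 0.574 and 0.452. Their HBZ stood at 58.1% and 53.6% of alpha-like UMIs and their HBD at 2.81% and 2.48% of beta-like UMIs. Cells that met exactly the erythroid and endothelial lists (50 and 140) had a ratio of 1.30 and 1.15 and HBD at 0.0163% and 0.147%. For exactly the megakaryocytic and endothelial lists (174 and 352), the ratio was 0.0869 and 0.118 and HBD stood at 6.84% and 6.06%.

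Globin-rich cells that met no list had globins at 9.73% and 8.96% of their UMIs, a share that their choice by globin UMIs helps to set, with medians of 2040 and 3615 UMIs in all and 4 and 5 UMIs of the erythroid list. HBZ made up 65.1% and 63.9% of their alpha-like UMIs and HBE1 27.3% and 26.0% of their beta-like UMIs. The part of depth, of joined droplets and of free RNA in these groups was not tested.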

How the results depend on the processing

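The contrasts of megakaryocytic cells with erythroid cells and cardiomyocytes kept their counts of called globin genes within 1.5 times under every alternative fitted, and the smaller contrasts did not. For myeloid against cardiomyocyte (3 called), the count was 0 when mixed cells were given to their dominant list (1 at an unadjusted p under 0.05), 7 without the filter on low counts, 1 without cells carrying other lists, and 5 without high-UMI cells. For endothelial against cardiomyocyte (1 called), these 4 settings gave 6, 6, 2 and 5. For late against early (2 called), they gave 0, 7, 0 and 1, with 2 and 4 at an unadjusted p under 0.05 in the settings with 0, and the count was 1 with DESeq2, with cells of at least 3000 UMIs, with a gate of 20 UMIs and with a stage gate of 2 UMIs. For cycling against non-cycling (2 called), it was 0 with DESeq2, 1 with the dominant list and 7 without the filter. With the organoid as a replicate block the counts were 5, 5, 4 and 4 for these contrasts in turn, and HBG2 was called in addition between erythroid and megakaryocytic cells. The cause of these changes was not tested. The dominant list and megakaryocytic cells without erythroid UMIs were chosen after seeing the data.

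As a mean over cells, the erythroid HBE1 share was 38.7%, the gamma share 61.2%, the HBZ share 67.4%, the alpha-like to beta-like ratio 1.34 and the globin share 12.1%. The globin share was 12.9% without cells carrying other lists and 12.2% without high-UMI cells.

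The sign turned only in values that passed no test. For HBZ in megakaryocytic against cardiomyocyte cells, the log2 fold change was -0.17 with cells of at least 3000 UMIs, -0.32 with the dominant list, -0.28 without erythroid UMIs, -0.27 without high-UMI cells and -0.73 without organoid 33.10 (0.31 without 32.7). In myeloid against cardiomyocyte cells, HBB was 0.18 from 3000 UMIs and 0.33 without organoid 33.10, HBQ1 -0.084 with the dominant list and -0.20 without high-UMI cells, HBD 0.71 with the gate of 20 and HBM 0.37 without other lists. In endothelial against cardiomyocyte cells, HBD was 0.11 from 3000 UMIs, 0.0013 with the gate of 20 and 0.13 without organoid 32.7 (-0.83 without 33.10), HBB 0.21 from 3000 UMIs and 0.066 without organoid 33.10 (-0.54 without 32.7), and HBM 0.16 without organoid 32.7 (-2.35 without 33.10). In late against early cells, HBD was 0.26 without other lists and 0.23 without high-UMI cells, HBQ1 -0.004 without other lists and -0.23 without organoid 33.10 (0.18 without 32.7), and HBB -0.61 without organoid 33.10 (2.73 without 32.7). In cycling against non-cycling cells, HBB was -0.15 with the dominant list, -0.048 with the gate of 20 and -0.008 without high-UMI cells.

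Leaving out 1 organoid leaves no residual degrees of freedom, so it gives values and no count of calls. Blood-forming endothelium was not fitted in any setting. HBB rests on 17 to 107 UMIs per library in the globin-rich classes, which limits its precision.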
